A study of Mus musculus with 2 samples.

Results

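The miR-200 family of the mouse comprises 5 microRNA (miRNA) genes in a pair of genomic clusters, Mir200b, Mir200a and Mir429 on chromosome 4 and Mir200c and Mir141 on chromosome 6. The genes were taken by name from the GENCODE M21 annotation, and all 5 were found among the 2202 miRNA genes of the count tables. The libraries hold RNA under 30 nt from hippocampus. The source mice are recorded as females, 8 to 10 months old, of the strain 5xFAD/CAST. The 5xFAD transgenes, driven by the neuron-directed Thy1 promoter, are a mouse model of Alzheimer's disease in which amyloid plaques develop. CAST commonly denotes a strain bred from wild castaneus mice. The labels give 1 group of 2 biological replicates, which are separate biosamples under a shared donor entry, so both libraries carry the same strain, sex, age range and tissue label and no other genotype is at hand. The labels do not say whether these biosamples came from different animals, and the spread between them may be partly technical.

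The family is known as a guardian of the epithelial state. Its members repress the transcription factors Zeb1 and Zeb2, which in turn bind and repress the promoters of both clusters, so that epithelial cells hold the miRNAs high and mesenchymal cells hold them low. In the mouse nervous system the family is best known from olfactory neuroepithelium, where it is needed for the differentiation of olfactory neurons. Each gene encodes a hairpin from which a 5p and a 3p mature miRNA can be cut, and bases 2 to 8 of the mature miRNA, the seed, pair with the target mRNA.

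The 3p products are shown because their seeds divide the family in a way that cuts across the genomic clusters. The sequences are from RefSeq on GRCm38.p6, where all 5 genes matched by symbol, and capitals mark the seed.
miR-200b-3p: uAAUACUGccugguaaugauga
miR-200c-3p: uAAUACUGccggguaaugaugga
miR-429-3p: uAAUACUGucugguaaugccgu
miR-200a-3p: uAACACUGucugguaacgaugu
miR-141-3p: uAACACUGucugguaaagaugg
The 2 seeds differ by the substitution U4C, counted from base 1 at the 5′ end of the mature miRNA, with the seed of miR-200b, miR-200c and miR-429 given first. Within the RefSeq table of 1738 mature mouse miRNAs, the first seed occurred in these 3 miRNAs alone and the second in these 2 alone. From miR-200b-3p to miR-200c-3p, which lie in different clusters, there were 2 substitutions in 22 compared bases (U11G and A22G), and from miR-200a-3p to miR-141-3p there were also 2 (C17A and U22G). The clusters thus each hold members of both seeds. The first 18 bases of each mature product occurred in 1 gene of the table, so none of the 5 genes has a copy with the same mature sequence there.

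The 5p products, which the gene counts add to the 3p products, are less alike. Capitals again mark bases 2 to 8.
miR-200b-5p: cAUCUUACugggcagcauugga
miR-200a-5p: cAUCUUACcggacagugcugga
miR-141-5p: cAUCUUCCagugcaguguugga
miR-200c-5p: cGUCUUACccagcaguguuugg
miR-429-5p: gUCUUACCagacaugguuaga
On this arm miR-200a and miR-200b share a seed, and the other members each have their own. Because the counts are per hairpin, the values below do not tell the arms apart.

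Zeb2, a well-known target of the family and a transcription factor of developing neurons and myelinating glia, holds many matches to both seeds. In the longest 3′ UTR annotated for Zeb2 in M21, 4941 bases long, the letters CAGTATT, complementary to the first seed, occurred 5 times and CAGTGTT, complementary to the second, occurred 4 times on the transcript strand. The motifs differ in 1 letter, so no position matches both. Of 822 genes with a 3′ UTR at least this long, taken over the same length from its start, 38.7% held CAGTATT and 51.7% held CAGTGTT, with a median of 1 match to either. As many as 9 matches to either motif occurred in 1 of the 822, which is Zeb2 itself. The sites shown are the first 2 of each motif that are followed by an A, a base that strengthens miRNA sites, given on the minus strand of mm10 with the match in capitals.
CAGTATT at UTR position 458, chr2:44988098-44988127: actacagtgcatCAGTATTacgattcctca
CAGTATT at UTR position 820, chr2:44987736-44987765: aagcacccgtgtCAGTATTagacgactagg
CAGTGTT at UTR position 209, chr2:44988347-44988376: aaaaattttgtaCAGTGTTaaggcctaaaa
CAGTGTT at UTR position 782, chr2:44987774-44987803: ttgcaccagcttCAGTGTTaagctcaccgt
These are matches of letters, and neither Zeb2 mRNA nor its protein was measured in these libraries.

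All hairpins lie on the minus strand of their chromosome in mm10. Mir200b (ENSMUSG00000065549.3) lies on chromosome 4 from 156055681 to 156055750, Mir200a (ENSMUSG00000065400.1) from 156054896 to 156054985 and Mir429 (ENSMUSG00000065427.1) from 156053905 to 156053987. The cluster spans 1846 bp inside introns of Ttll10, a tubulin tyrosine ligase-like gene on the same strand. It also lies within the non-coding gene Gm13648, of which Mir429 sits in an exon and the other two in an intron. Mir200c (ENSMUSG00000065462.3) lies on chromosome 6 from 124718322 to 124718390 and Mir141 (ENSMUSG00000065474.1) from 124717914 to 124717985, together 477 bp. Both sit in an intron of the non-coding gene Gm15884, and 31 bp of Mir141 overlap the unclassified transcript Gm29008. Within 10000 bp on the same strand, no miRNA gene outside the family was annotated. In the direction of transcription Mir200b comes first in its cluster, followed by Mir200a after a gap of 695 bp and Mir429 after a further 908 bp, and Mir200c precedes Mir141 by 336 bp.

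Replicate 1 held 3135960 counts on the sense strand of miRNA genes and replicate 2 held 4377622, or 31.5% and 34.3% of all reads. Reads that mapped to several places, 36.3% and 41.7% of the reads, stand outside these counts. Levels are CPM, the assigned counts of a gene scaled to 1 common total per library, as mean ± SD with n = 2. Intervals are exact 95% binomial intervals of the counts, which cover counting error only and leave out spread between libraries. Amplified reads are not independent molecules, so the intervals may be too narrow even for counting error. Mature miRNAs of the family are 21 to 23 nt long and give 1 read each, so levels were compared between genes without scaling by hairpin length. Any difference between miRNAs in capture during library preparation was not measured, so an order of genes is an order of counts. The level that no count at all would allow was 0.957 CPM for replicate 1 and 0.685 CPM for replicate 2, from 3 counts. The neuronal miRNA genes Mir132, induced by neuronal activity, and Mir128-1, which has a second copy, were at 21687 and 4545 CPM in replicate 1 and at 13106 and 9069 CPM in replicate 2.

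The miR-200 family was present at low level in both libraries. The 5 genes together had 1360 counts in replicate 1 and 521 counts in replicate 2. These were 0.0434% of the assigned counts in replicate 1 (interval 0.0411% to 0.0457%) and 0.0119% in replicate 2 (0.0109% to 0.0130%), or 0.0276% ± 0.0223 (SD, n = 2). In bulk tissue such a level does not tell few expressing cells from little RNA per cell. With at least 10 counts in both libraries, 4 of the 5 genes counted as detected, where 17.4% of all 2202 miRNA genes did. Mir141, with 62 and 5 counts, was the member below that limit.

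**Figure D1:**
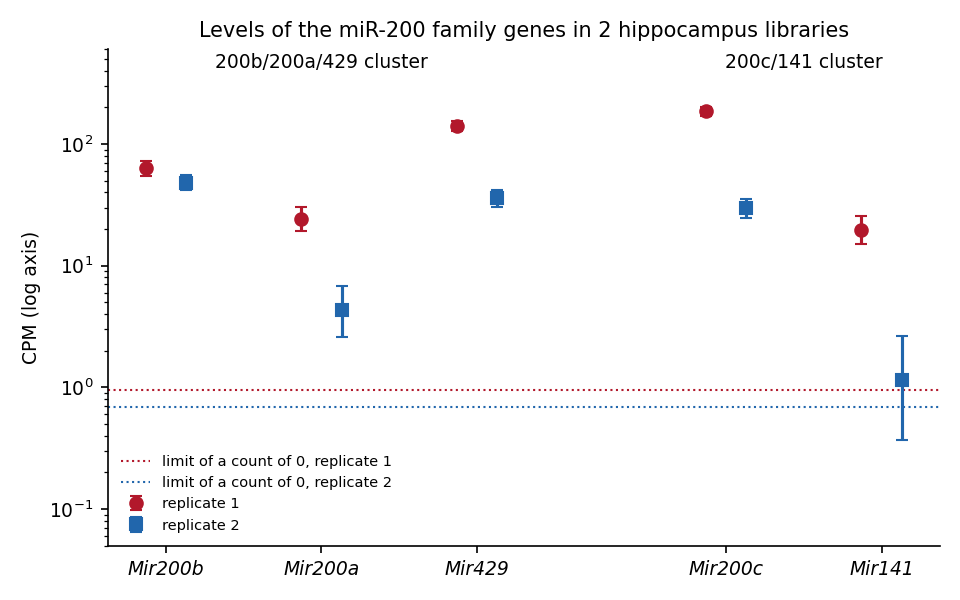
Level of each family gene in CPM (log axis) in replicate 1 (red circles) and replicate 2 (blue squares), with exact 95% counting intervals; dotted lines mark the level that a count of 0 allows. All 5 genes lie higher in replicate 1, with Mir200b at 63.1 and 48.2 CPM as the closest pair and Mir141 at 19.8 and 1.14 CPM as the widest. Of the 384 genes with at least 10 counts in each library, 47.1% were higher in replicate 1.

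In the chromosome 4 cluster, Mir200b, its first hairpin and a carrier of the first seed, had 198 counts (63.1 CPM, interval 54.7 to 72.6) in replicate 1 and 211 counts (48.2 CPM, 41.9 to 55.2) in replicate 2. Mir200a, the middle hairpin with the second seed, had 76 counts (24.2 CPM, 19.1 to 30.3) and 19 counts (4.34 CPM, 2.61 to 6.78). Mir429, the last hairpin with the first seed, had 443 counts (141.3 CPM, 128 to 155) and 156 counts (35.6 CPM, 30.3 to 41.7). The intervals of Mir200b overlapped at their edge, though its ratio of 1.31 had an interval of 1.07 to 1.60, which leaves out 1. Mir200a and Mir429 were higher in replicate 1 by more, with intervals that do not overlap.

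In the chromosome 6 cluster, Mir200c, which differs from Mir200b at few bases of the 3p product, had 581 counts (185 CPM, 171 to 201) in replicate 1 and 130 counts (29.7 CPM, 24.8 to 35.3) in replicate 2. Mir141, its partner with the second seed, had 62 counts (19.8 CPM, 15.2 to 25.3) and 5 counts (1.14 CPM, 0.371 to 2.67). Both genes of this cluster were higher in replicate 1, and the interval of Mir141 in replicate 2 includes the level that a count of 0 allows. No member had more than 2 counts on the opposite strand, all of them from Mir200a in replicate 2.

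Ordered by mean level, Mir200c was at 107 ± 110 CPM, Mir429 at 88.5 ± 74.7 CPM, Mir200b at 55.7 ± 10.6 CPM, Mir200a at 14.3 ± 14.1 CPM and Mir141 at 10.5 ± 13.2 CPM (SD, n = 2 each). The values of Mir200b, 63.1 and 48.2 CPM, lay above those of Mir200a, 24.2 and 4.34 CPM, without overlap. All other neighbours in this order overlapped between the libraries and did not differ beyond their spread. The order itself was not the same in both libraries, as Mir200c led in replicate 1 and Mir200b in replicate 2. Mir200a and Mir141 held the last places in both. Among all 2202 genes the members ranked from 170 (Mir200c) to 285 (Mir141) in replicate 1 and from 238 (Mir200b) to 503 (Mir141) in replicate 2. The genes next to Mir200b in mean level were Mir9-3, at 56.2 ± 3.53 CPM, and Mir1188, at 54.7 ± 1.501 CPM. Mir9-3 is a copy of a brain-enriched miRNA, and reads that fit several copies stand outside its counts. Next to Mir200c stood Mir376b at 110 ± 51.0 and Mir325 at 106 ± 22.8 CPM, and next to Mir429 stood Mir8112 at 89.2 ± 11.2 and Mir483 at 87.6 ± 7.95 CPM. Mir190b at 14.3 ± 3.16 and Mir7031 at 13.9 ± 5.22 CPM bracketed Mir200a, and Mir5132 at 10.6 ± 0.785 and Mir499 at 10.5 ± 3.96 CPM bracketed Mir141. Each of these 10 neighbours had a smaller SD than the member it stood beside.

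The ratio of the family between the libraries was wide for this pair of replicates. Its summed level in replicate 1 was 3.64 times that in replicate 2 (exact binomial interval 3.29 to 4.04), a ratio that compares these 2 libraries and no conditions. Among the 4 genes with at least 10 counts in each library, 3 were at least 2-fold higher in replicate 1, where 6.51% of the 384 genes with such counts were. In the other direction 5.73% of the 384 genes were at least 2-fold apart, among them no member. Over the 384 genes the median ratio was 0.976, and the 5th and 95th percentiles were 0.490 and 2.19. Of the 105 genes with such counts whose mean level lay between that of Mir200a and that of Mir200c, 10.5% (11 genes) were at least 2-fold higher in replicate 1. The 4 members are part of both the 384 and the 105 genes, and 3 of the 11 are members.

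By gene, Mir200c was 6.24 times as high in replicate 1 as in replicate 2 (5.15 to 7.60), Mir200a 5.58 times (3.34 to 9.78), Mir429 3.96 times (3.30 to 4.79) and Mir200b 1.31 times (1.07 to 1.60). Mir141 was 17.3 times as high (7.03 to 55.2), on 5 counts in replicate 2. A higher ratio than that of Mir200c was found for 1 of the 384 genes, and a higher one than that of Mir200b for 83 genes, or 21.6%. The low ratio of Mir200b thus lay within the bulk of all genes, and those of the other members lay beyond the 95th percentile.

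**Figure D2:**
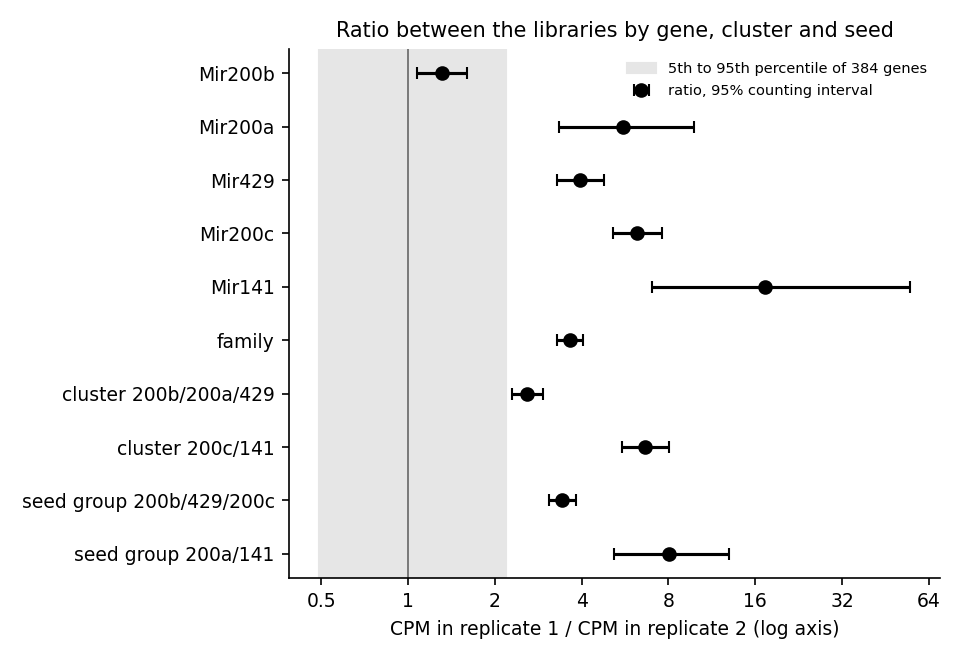
CPM in replicate 1 over CPM in replicate 2 (log axis) for each gene, the whole family, each genomic cluster and each seed group, as points with exact 95% counting intervals; the grey band spans the 5th to 95th percentile of the 384 genes with at least 10 counts in each library, from 0.490 to 2.19. Mir200b at 1.31 lies inside the band, and the other genes, from 3.96 to 17.3, lie to its right.

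The clusters differed in this ratio. The chromosome 6 cluster was at 205 CPM in replicate 1 and 30.8 CPM in replicate 2, a ratio of 6.65 (5.51 to 8.07). The chromosome 4 cluster was at 229 CPM in replicate 1 and 88.2 CPM in replicate 2, a ratio of 2.59 (2.29 to 2.94). The chromosome 6 ratio was 2.56 times the chromosome 4 ratio (exact conditional interval 2.04 to 3.23). In replicate 1 the chromosome 6 cluster supplied 47.3% of the family's counts (44.6% to 49.97%), and in replicate 2 it supplied 25.9% (22.2% to 29.9%). Much of this rested on Mir200b. Without Mir200b, chosen after its values were seen, the clusters' ratios differed 1.61-fold (1.24 to 2.09), and the remaining 4 genes together had a ratio of 5.23 (4.61 to 5.95).

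Within the chromosome 4 cluster the hairpins did not keep 1 proportion. Mir200b made up 27.6% of the cluster's counts in replicate 1 (24.4% to 31.0%) and 54.7% in replicate 2 (49.5% to 59.7%). Mir429 made up 61.8% (58.1% to 65.4%) and 40.4% (35.5% to 45.5%), and Mir200a 10.6% (8.44% to 13.1%) and 4.92% (2.99% to 7.58%). Mir429 had 2.24 counts for each count of Mir200b in replicate 1 and 0.739 in replicate 2, a 3.03-fold difference (2.30 to 3.98). Between Mir200a and Mir429 the proportion was closer, at 0.172 and 0.122 counts, a 1.41-fold difference whose interval, 0.811 to 2.55, includes 1. By counting error alone, the first hairpin of the cluster stood apart from both that follow it. Those were not distinguishable from each other by these intervals, which leave out spread between libraries. Unequal ratios between neighbouring hairpins were not particular to this cluster. Mir99b and Mirlet7e, named after their values were seen, had ratios of 0.252 and 0.918. Mir183 and Mir182 had 5.94 and 2.52, Mir34c and Mir34b 5.98 and 2.60, and Mir143 and Mir145a, closer together, 1.19 and 1.34.

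**Figure D3:**
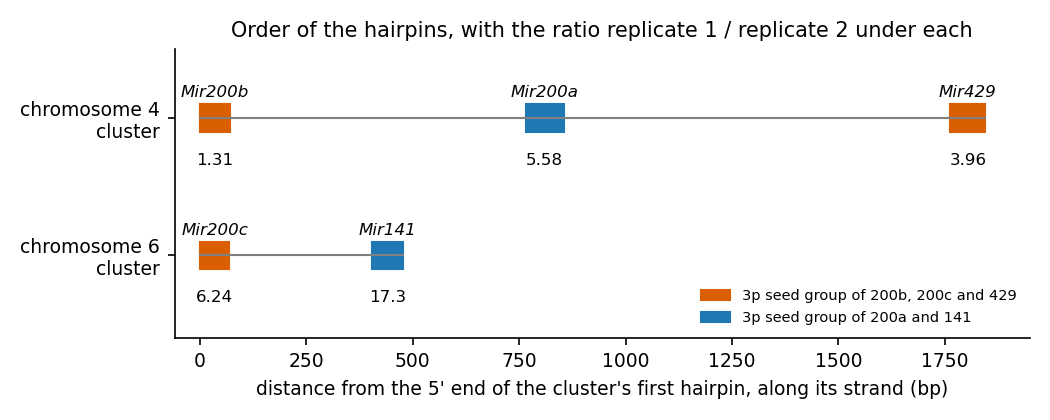
Hairpins of the chromosome 4 and chromosome 6 clusters in the direction of transcription, with distance in bp from the 5′ end of the first hairpin on the x axis; colours mark the 3p seed group and the number under each hairpin is its CPM in replicate 1 over replicate 2. Mir200b, the first hairpin of the longer cluster, has the lowest ratio at 1.31, and Mir141, the last of the shorter one, has the highest at 17.3.

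In the chromosome 6 cluster Mir200c held nearly all counts in both libraries, 90.4% in replicate 1 (87.8% to 92.5%) and 96.3% in replicate 2 (91.6% to 98.8%), and Mir141 held 9.64% (7.47% to 12.2%) and 3.70% (1.21% to 8.43%). Mir141 had 0.107 counts for each count of Mir200c in replicate 1 and 0.0385 in replicate 2, a 2.77-fold difference with a wide interval of 1.09 to 9.01. Across clusters, Mir200c had 1.31 counts for each count of Mir429 in replicate 1 and 0.833 in replicate 2, a 1.57-fold difference (1.20 to 2.07).

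By seed, the group of Mir200b, Mir429 and Mir200c held 89.9% of the family's counts in replicate 1 (88.1% to 91.4%) and 95.4% in replicate 2 (93.2% to 97.0%). It was at 390 CPM in replicate 1 and 114 CPM in replicate 2, a ratio of 3.43 (3.09 to 3.82). The group of Mir200a and Mir141 was at 44.0 CPM in replicate 1 and 5.48 CPM in replicate 2, a ratio of 8.03 (5.18 to 13.0). Its ratio was 2.34 times that of the first group (1.49 to 3.82). The seed with fewer counts had the higher ratio, on 138 and 24 counts, and this difference too rested in part on Mir200b. Without Mir200b the first group had a ratio of 5.00 (4.38 to 5.72), and the ratio of the second group was 1.61 times that (1.01 to 2.64). By gene the seeds were not separated, as the intervals of Mir200c, of the first seed, and Mir200a, of the second, overlapped. In each cluster the members with this seed, Mir200a and Mir141, had the lowest level in both libraries.

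**Figure D4:**
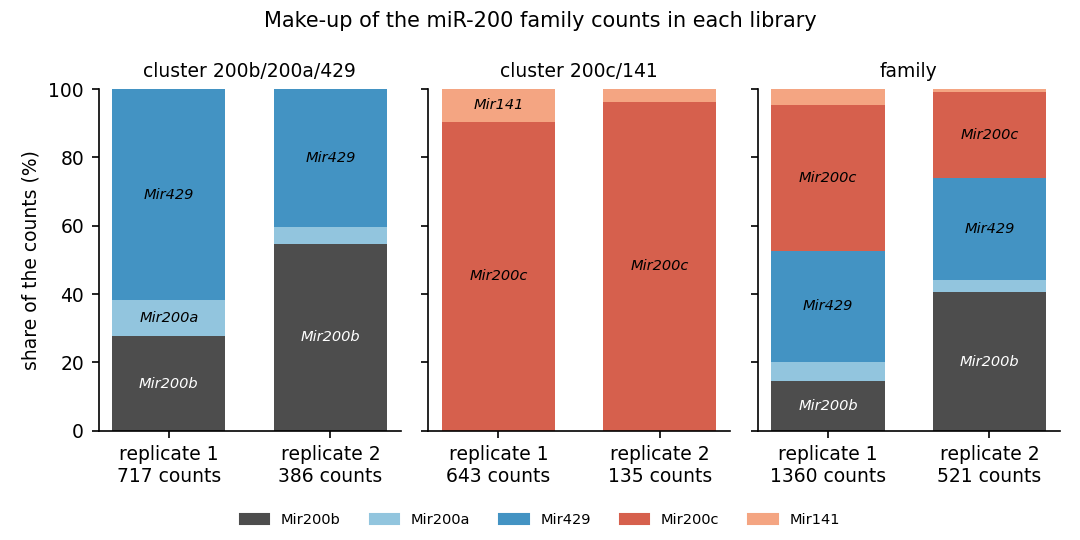
Share of the counts of the chromosome 4 cluster, the chromosome 6 cluster and the whole family (y axis, percent) held by each gene in replicate 1 and replicate 2, with the counts behind each bar under it. Mir200b holds 27.6% of its cluster in replicate 1 and 54.7% in replicate 2, while Mir200c holds over 90% of its cluster in both.

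Some miRNAs of epithelial and ciliated cells were higher in replicate 1 as well, and others were close to even. Of 5 further epithelial genes, Mir203, Mir205, Mir183, Mir96 and Mir182, 3 had at least 10 counts in each library and 2 of these were at least 2-fold higher in replicate 1, where 6.51% of all such genes were. Their summed level was 497 CPM in replicate 1 and 157 CPM in replicate 2. Mir183, a miRNA of sensory epithelia, was at 270 and 45.5 CPM, Mir182 from the same cluster at 89.9 and 35.6 CPM, and Mir203, a miRNA of skin epithelium, at 128 and 72.4 CPM. Mir205, another miRNA of stratified epithelium, was near the limit of a count of 0 at 1.28 and 1.83 CPM, and Mir96 was at 7.33 and 1.37 CPM. Mir183, Mir96 and Mir182 are also the list for olfactory and retinal sensory neurons, with a sum of 367 CPM in replicate 1 and 82.5 CPM in replicate 2.

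Of 7 genes listed for choroid plexus, ependyma and ciliated cells, 5 had at least 10 counts in each library, all 5 were higher in replicate 1, as were 47.1% of all 384 genes, and 2 were at least 2-fold higher. Their summed level was 3072 CPM in replicate 1 and 1165 CPM in replicate 2, a ratio of 2.64 (2.55 to 2.73) to which Mir34c contributed the most, while the median ratio of the 5 genes was 1.54. Mir34c, a miRNA of multiciliated cells, was at 1747 and 292 CPM and Mir34b from the same transcript at 43.4 and 16.7 CPM. Mir204, abundant in choroid plexus and retinal pigment epithelium, was at 1148 and 744 CPM, Mir211 at 79.7 and 69.9 CPM and Mir449a, another miRNA of multiciliated cells, at 54.8 and 42.0 CPM. Mir449b had 0 counts in both libraries, and Mir449c had 0 in replicate 1 and 1 in replicate 2. The ratio of Mir211 was 1.14, with an interval of 0.961 to 1.35 that includes 1. The higher levels of Mir183, Mir182, Mir34c and Mir34b stood beside that of the miR-200 family in replicate 1, and the part of such cells in its ratio was not tested.

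The sums of other lists were closer to even. The pituitary and neuroendocrine list had a sum of 2944 CPM in replicate 1, against 2393 CPM in replicate 2, with 0 of its 4 genes 2-fold apart and Mir375, a miRNA of endocrine cells, at 893 and 540 CPM. The neuronal list summed to 31503 and 27996 CPM, with 9 of 13 genes at 10 counts in each library. Of these 9 genes 3 were higher in replicate 1, with a median ratio of 0.911, against the direction of the sum. Mir132 had a ratio of 1.65, Mir128-1 one of 0.501 and Mir128-2 one of 0.677. Several genes of the list, Mir124a and Mir9 among them, have copies. Reads that fit several copies stand outside the counts, so the levels of such genes, and the sum of the list, may be too low. The oligodendrocyte list, led by Mir219a-2 and Mir338, summed to 6799 and 6685 CPM. The endothelial and smooth muscle list, with Mir126a at its head, was lower in replicate 1, at 20692 CPM against 29339 CPM in replicate 2. The fibroblast and meninges list summed to 126 and 117 CPM, nearly all from Mir214, with Mir199a-1 and Mir199a-2 at 0 in both. Those are copies by symbol, and reads that fit both stand outside the counts, so their 0 counts do not show absence. The red blood cell list summed to 70.2 and 78.4 CPM, and its member Mir144 was at 2.87 and 17.1 CPM, a ratio of 0.168 (0.0737 to 0.335) on 9 and 75 counts. No gene of these 6 lists with at least 10 counts in each library was 2-fold apart, where 12.2% of all 384 such genes were. The listed genes are few, so this does not set them apart from all genes. Mir144 was short of that count. So were, among others, Mir9-2, with 10 and 4 counts and a ratio of 3.49 (1.01 to 15.2), and Mir124a-1, with 2 and 8 counts and a ratio of 0.349 (0.0361 to 1.75). Mir128-1 lay just inside the 2-fold limit. Scaled to total reads, the ratio of Mir128-1 was 0.460 and past that limit.

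**Figure D5:**
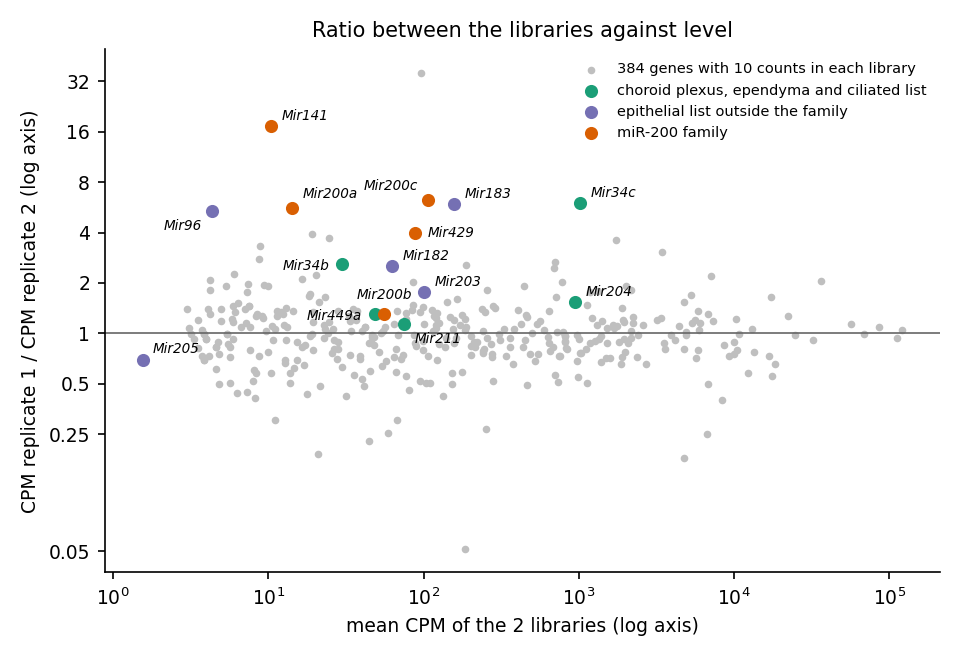
CPM in replicate 1 over CPM in replicate 2 against the mean CPM of both libraries (log axes) for the 384 genes with at least 10 counts in each (grey) and for the members of 3 lists whatever their counts (colours), apart from genes with 0 counts in replicate 1. Mir200c, Mir200a and Mir429 lie beside Mir183 and Mir34c near the top, and Mir200b lies beside Mir449a, at 1.31 and 1.30.

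Among the 384 genes, 8 had a higher ratio than the family's sum. The members Mir200c, Mir200a and Mir429 were 3 of them, and the listed genes Mir34c, at 5.98, and Mir183, at 5.94, were another 2. The sum is made of the members' own counts, so with unequal ratios some members lie above it by construction. The remaining 3, named after their values were seen, were Mir26a-1 at 35.9, Mir135b at 3.94 and Mir135a-2 at 3.70. Mir26a-1 and Mir135a-2 each have a further copy by symbol, and reads that fit both copies stand outside the counts. With 2 libraries, likeness of pattern is no more than likeness of this ratio. By log2 ratio the 5 genes outside the family nearest to its sum were Mir222, Mir135a-2, Mir135b, Mir669e and Mir21a. Mir222 was at 2716 and 749 CPM, a ratio of 3.62 (3.48 to 3.77), and Mir21a, which is raised in reactive glia, at 5176 and 1686 CPM, a ratio of 3.07 (2.99 to 3.16). Mir669e, one of a repeat family with near-identical copies, had 43 and 18 counts, so its ratio of 3.33 is uncertain (1.88 to 6.14).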

How the data were processed

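Small RNA of 2 hippocampus libraries was sequenced, and the authors deposited 1 table of raw read counts per library, with 4 summary lines and 2202 miRNA genes. The assembly mm10 and the annotation M21 are named in the notes deposited with the tables. For the aligner, counter and trimming, no information is given in the sources used here. The deposited counts are given without regard to strand and on each strand, and column 3, with 93.4% (replicate 1) and 91.9% (replicate 2) of all counts on either strand, was used as the sense strand. Library sizes exclude the summary lines: unmapped reads were 26.5% and 18.1% of 9962659 and 12761689 reads, and multimapping reads 36.3% and 41.7%. Variants of the CAST strain relative to mm10 were not considered.

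Computed here were CPM over assigned counts, shares with exact Clopper-Pearson intervals, ratios of CPM with exact binomial intervals and ratios of ratios with exact conditional intervals. With 1 group of 2 samples no test between conditions exists and no p-value is given. Detection required 10 counts in each library, and genes counted as apart at a 2-fold ratio. The members and 9 marker lists (all 42 symbols matched) were chosen with earlier results of these data known. Named genes are the members, the listed genes, the 5 nearest in log2 ratio and the neighbours in mean CPM. Mir26a-1, Mir99b and Mirlet7e were added after their values were seen. Intervals and calls were run on simulated counts that held counting error only, as the intervals assume. That run says nothing about spread between real libraries. Software was Python 3.11.15 with scipy 1.17.1, pandas 2.3.3, numpy 2.4.6 and matplotlib 3.10.9, and, for alternative scalings only, edgeR 4.0.16 and DESeq2 1.42.0 in R 4.3.3.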

Additional observations from a re-analysis of the deposited data

How the results depend on the processing

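The family's ratio of replicate 1 over replicate 2 was 3.70 with edgeR's TMM factors, 3.79 with DESeq2's size factors, 3.34 with total reads and 3.56 in counts without regard to strand, against 3.64 as reported. Under each of these scalings all 5 genes remained higher in replicate 1, as 47.1% of the 384 genes were in the scaling reported. Total reads shifted the median log2 ratio of the 384 genes by -0.12, and the other scalings shifted it by 0.02 and 0.06. Mir200b was the one gene whose interval then included 1, with a ratio of 1.20 (0.985 to 1.47) by total reads. Its level was 18.2 CPM of total reads, against 55.7 CPM of assigned counts, by construction of the larger denominator. The share of genes at least 2-fold apart was 12.2%, and 26.8% of 604 genes when 1 count in each library sufficed, since genes of few counts then enter. Without replicate 1 the family's share of counts was 0.0119% and without replicate 2 it was 0.0434%, and 4 and 5 members had at least 10 counts. With at least 5 counts, or at least 1, in each library, 5 members were detected, where 604 of all 2202 miRNA genes had at least 1. For the limit of 5 counts, and for 1 library alone, the share of all genes was not computed. The 5 counts of Mir141 in replicate 2, the deeper library, give its ratio a wide interval of 7.03 to 55.2. Leaving out Mir200b, an alternative chosen after seeing the data, brought the difference between the clusters' ratios to 1.61-fold, against 2.56-fold, and that between the seed groups to 1.61-fold, against 2.34-fold. The ratio of Mir128-1 by total reads, 0.460, was also added after seeing the data. No paired analysis was possible because the labels give 1 group.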
